A study of Mus musculus with 12 samples.

Results

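The 8 genes described here encode signals by which osteoblasts and bone tumour cells act on the formation of osteoclasts. They are Tnfsf11 (RANKL), Tnfrsf11b (osteoprotegerin), Csf1 (M-CSF), Il6, Il11, Lif, Pthlh (parathyroid hormone-related protein) and Pth1r (the receptor of parathyroid hormone and of that protein). They were found by name, through the accession of each probe, without a threshold on their values, and the set was drawn up with earlier results of these data known. They account for 10 of the 39429 probes and for 8 of the 20144 genes measured, since Csf1 had 3 probes and each of the others had 1.

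Expression was measured on 12 single-colour Agilent mouse arrays. Dunn is a mouse osteosarcoma line of low metastatic activity, and LM8 is a metastatic line derived from it by selection in mice. Early cells were at passage 25 (Dunn) and passage 24 (LM8), and late cells at passage 86 (Dunn) and passage 91 (LM8), which gave the groups Dunn_25, Dunn_86, LM8_24 and LM8_91 with 3 arrays each, from cultures grown separately per the series description. All groups were grown in the same DMEM/F12 medium with fetal calf serum, without added agents or genetic modification, and after thawing they were kept in culture for some further passages before RNA was prepared. Each line stands for itself only, as 1 tumour line and 1 derivative of it, and per the labels the cultures were of these tumour lines.

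RANKL on osteoblastic cells binds its receptor RANK on osteoclast precursors and drives them to become osteoclasts, whereas osteoprotegerin is a secreted decoy that captures RANKL. M-CSF keeps the precursors alive and dividing. Interleukin 6, interleukin 11 and leukaemia inhibitory factor act through receptors that share the subunit gp130, and they act on osteoblastic cells, as parathyroid hormone and its related protein do through PTH1R, to raise RANKL. Tumours in bone are known to use several of these signals.

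RefSeq promoter windows (assembly GRCm38.p6) were available for 7 of the 8 genes, 10 windows in all. The 250 bases before the start are shown, in the direction of transcription, for the 2 genes that were measured on every array (Csf1 and Pth1r), for a gene that was measured on none (Tnfsf11) and for Il6. For Pth1r, the window with the most CpG dinucleotides of its 3 is given. Capitals mark matches, on either strand, to 6 motifs. TATAAA stands for the TATA box and GGGCGG for the GC box. TGACGTC was searched as the cAMP response element and GGNNTTTCC as the letters of NF-kB. TTNNGCAA was searched for C/EBP and TGANTCA for AP-1. No 2 motifs overlapped in the windows shown.
Csf1, chr3:107760470-107760719, minus strand: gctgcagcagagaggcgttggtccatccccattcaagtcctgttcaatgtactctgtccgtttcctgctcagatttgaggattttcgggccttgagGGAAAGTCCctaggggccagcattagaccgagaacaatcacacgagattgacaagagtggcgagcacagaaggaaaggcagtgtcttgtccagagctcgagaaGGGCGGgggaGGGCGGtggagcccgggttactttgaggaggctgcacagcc
Pth1r, chr9:110742611-110742860, minus strand: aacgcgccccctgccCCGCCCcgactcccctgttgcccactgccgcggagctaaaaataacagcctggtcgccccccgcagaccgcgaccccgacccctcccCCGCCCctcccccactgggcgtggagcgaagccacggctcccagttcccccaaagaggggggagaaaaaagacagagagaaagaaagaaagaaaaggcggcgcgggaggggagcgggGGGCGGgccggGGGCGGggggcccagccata
Tnfsf11, chr14:78308044-78308293, minus strand: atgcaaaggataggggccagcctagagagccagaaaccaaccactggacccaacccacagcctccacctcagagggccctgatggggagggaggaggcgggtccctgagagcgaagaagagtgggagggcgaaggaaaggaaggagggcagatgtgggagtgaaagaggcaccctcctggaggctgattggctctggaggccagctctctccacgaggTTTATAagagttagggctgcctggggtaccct
Il6, chr5:30012864-30013113, plus strand: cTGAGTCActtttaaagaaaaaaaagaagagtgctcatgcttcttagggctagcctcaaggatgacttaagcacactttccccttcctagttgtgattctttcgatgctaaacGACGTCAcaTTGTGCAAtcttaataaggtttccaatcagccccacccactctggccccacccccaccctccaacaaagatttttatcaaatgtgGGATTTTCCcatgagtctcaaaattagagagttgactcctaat
The windows differed in CpG content, with 22 CpG dinucleotides for Pth1r, 10 for Csf1, 4 for Tnfsf11 and 3 for Il6, against a median of 6 over the 32851 RefSeq windows of this length. Pthlh, which was not measured above background on any array, had 26. Of all windows, 12.4% held the TATA box letters and 32.7% the GC box letters. The letters of the cAMP response element were in 2.78%, those of NF-kB in 4.93%, those of C/EBP in 9.56% and those of AP-1 in 6.75%. The Il6 window matched 4 of the 6 motifs, the NF-kB letters beginning 43 bases and the C/EBP letters 128 bases before the start. The Csf1 window matched the NF-kB letters on the reverse strand, 154 bases before the start, and held 2 GC boxes. The Pth1r window held 4 GC boxes, and the Tnfsf11 window a TATA box on the reverse strand that began 32 bases before the start. A match to these letters is a description of the sequence and says nothing about binding in these cells.

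The values are the scanner's processed signal, an intensity with the background subtracted, and the scaled level is log2 of that signal relative to the 75th percentile of its array. Levels were compared between groups for a probe, not between probes. The 75th percentile ran from 379 to 735 in Dunn_25, 735 to 1078 in Dunn_86, 902 to 1405 in LM8_24 and 1169 to 2015 in LM8_91, so that Dunn arrays, early ones above all, were dimmer. The dimmest signal that the scanner software marked as well above background was 9.59 to 16.7 on 10 arrays, and 32.3 and 36.4 on the 2 Dunn arrays of slide 1. Replicate arrays correlated with r = 0.958 to 0.989 over probes, except that replicate 1 of Dunn_86 had 0.908 and 0.909 with its replicates. The 4 groups shared each of the 3 slides, and a group kept its place on all of them, so that position cannot be told apart from group. Of the osteoblast markers, 9 of 11 were well above background on every array with a value, among them Runx2 and Sp7, the transcription factors of the osteoblast lineage.

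Csf1 and Pth1r were well above background on all 12 arrays, as were 40.5% of all genes. Tnfsf11 and Pthlh were above background on 0 of 12 arrays, as were 21.2% of all genes. The other 4 genes were measured in some groups only: Tnfrsf11b in LM8, Il11 in LM8, Il6 in late Dunn cells, and Lif on 3 arrays of late cells. These cells thus gave a signal for M-CSF, for PTH1R and, in LM8, for osteoprotegerin, while RANKL was not detectable at this signal. In bulk RNA, fewer cells with a transcript and less transcript in each cell cannot be told apart.

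**Figure D1:**
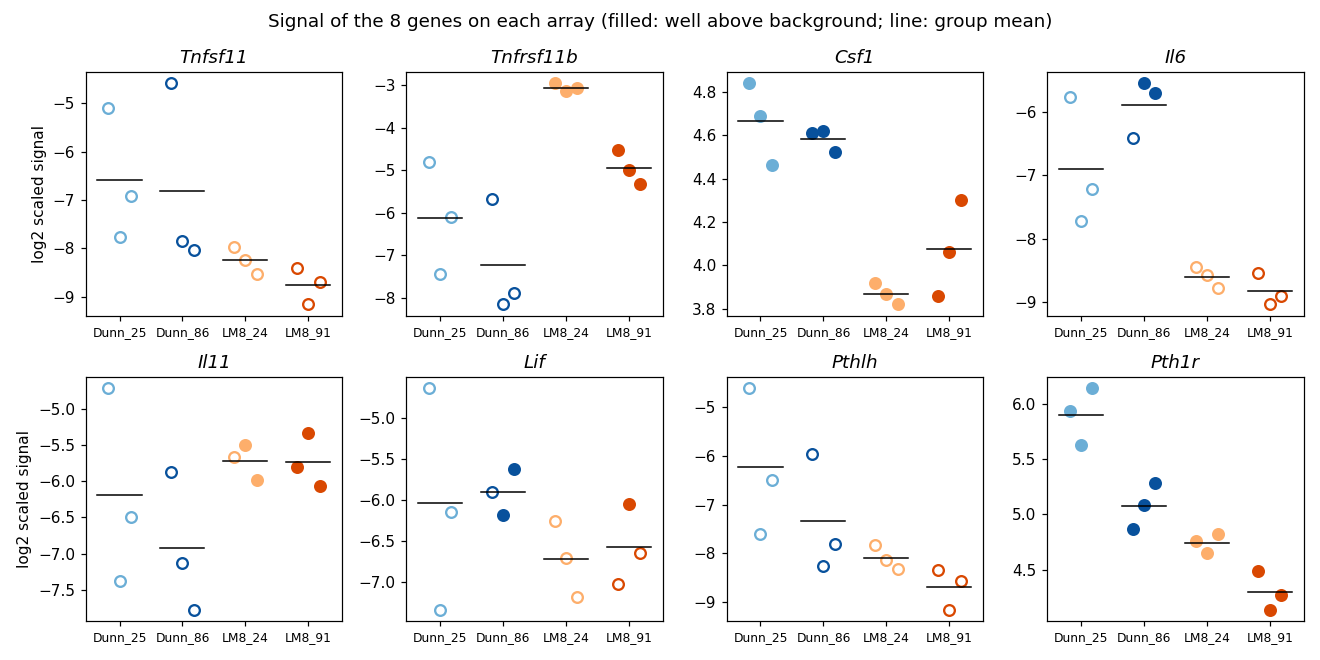
Scaled log2 signal (y axis, an own range in each panel) of the 8 genes in the 4 groups (x axis), with 1 point for each of the 3 arrays of a group in the order of the slides, filled where the signal was well above background, and a line at the group mean. Csf1 and Pth1r were filled on all 12 arrays, Tnfrsf11b on the 6 LM8 arrays only, and Tnfsf11 and Pthlh on 0 of 12.

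Differences between groups were tested with limma over all probes. A gene was called when its adjusted p was under 0.05 and its difference over 2-fold. For late versus early Dunn cells 0 of the 8 genes were called, where 0.00497% of all genes were (1 gene). The rule with an unadjusted p in place of the adjusted one also gave 0 of the 8, against 4.11% of all genes. For late versus early LM8 cells 1 of the 8 was called, Tnfrsf11b, against 2.89% of all genes, and 1 with an unadjusted p, against 7.43%. For early LM8 versus early Dunn cells 0 of 8 were called, against 3.27%; with an unadjusted p there were 5, against 25.6% of all genes, and of these only Tnfrsf11b and Pth1r were above background in the brighter group. For late LM8 versus late Dunn cells 1 of 8 was called, Il6, against 3.39%; with an unadjusted p there were 2, Il6 and Tnfrsf11b, against 12.2%. For the difference between the lines in the passage effect 0 of 8 were called, against 0.507% of all genes, and 0 of 8 with an unadjusted p, against 4.86%. The groups did not overlap for 1, 3, 6 and 6 of the 8 genes in Dunn passages, LM8 passages, early lines and late lines, where this was so for 14%, 24.2%, 48% and 44.9% of all genes, and some of these genes were not above background. The comparisons share arrays, since each group enters 2 of the first 4.

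**Figure D2:**
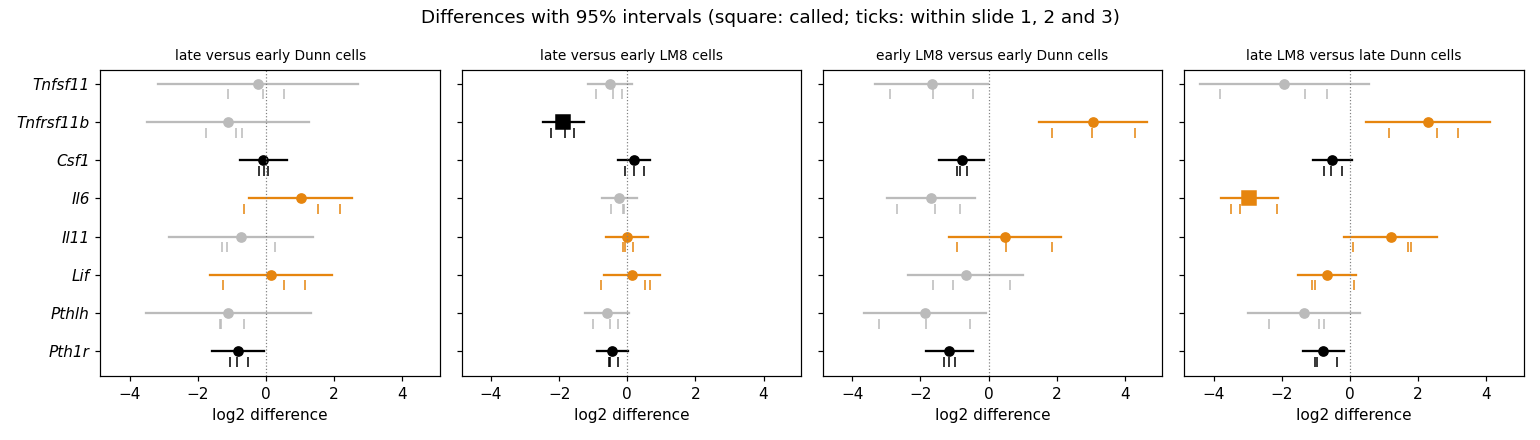
Log2 differences (x axis) of the 8 genes (y axis) in the 4 comparisons, each with its 95% interval from limma over 3 arrays a group, and ticks for the difference within each slide. Black marks genes above background on all arrays of both groups, orange those above background on some arrays, grey those on none, whose values are differences of background, and a square marks a called gene. Only Tnfrsf11b between LM8 passages and Il6 between late lines carry a square.

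The medians of the 8 genes were below those of all genes in each of the 4 comparisons of groups. They were -0.48 against -0.18 for Dunn passages, -0.34 against -0.17 for LM8 passages, -0.97 against -0.55 for early lines and -0.73 against -0.49 for late lines. These medians include the genes without a signal above background, and they are given as a description.

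Osteoprotegerin gave the clearest pattern of the 8. Its signal in LM8_24 was 117, 158 and 144, and in LM8_91 51.1, 63.2 and 33.8. All 6 values were well above background, and the groups did not overlap on either scale. The scaled level fell from -3.06 ± 0.10 (SD, n = 3) in early to -4.95 ± 0.41 (SD, n = 3) in late LM8 cells. The difference of -1.89 (SE 0.25, 95% interval -2.49 to -1.28) was 3.7-fold, with an adjusted p of 0.0135 in limma. It was lower in the late cells on each slide (differences -1.57, -1.84 and -2.25), and the adjusted p was 0.0499 with the slide as a block. The call was lost (adjusted p 0.057 to 0.0732) when replicate 1 of LM8_24, replicate 2 of LM8_91 or replicate 3 of LM8_91 was left out, and over all 12 arrays in 1 fit the adjusted p was 0.709.

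In Dunn cells the Tnfrsf11b signal was 14.5, 4.23 and 5.48 at passage 25 and 15.0, 3.76 and 3.13 at passage 86. These 6 values were not well above background, so that only bounds can be given between the lines. Early LM8 cells had at least 3.7-fold more signal than early Dunn cells, with a fitted difference of 3.06 (SE 0.66) and an adjusted p of 0.0801 in limma, which missed the threshold. Late LM8 cells had at least 1.75-fold more than late Dunn cells (fitted 2.29, SE 0.73, adjusted p 0.209). Within slides the difference of single arrays was 1.85, 4.29 and 3.03 for early and 1.15, 3.17 and 2.55 for late cells. It was smallest in both on slide 1, which held the Dunn arrays with the high limit. Without replicate 1 of Dunn_25, the early difference was called (3.72, adjusted p 0.00658), as it was without replicate 2 (2.40, adjusted p 0.0406), where 6445 of all genes were called. Without replicate 1 of Dunn_86, the late difference was called (3.07, adjusted p 0.00234). On leaving out other arrays the adjusted p ran up to 0.3 for the early and 0.576 for the late difference. With normexp background correction, which lifts dim signals, the fitted differences were -0.20 and -0.04.

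**Figure D3:**
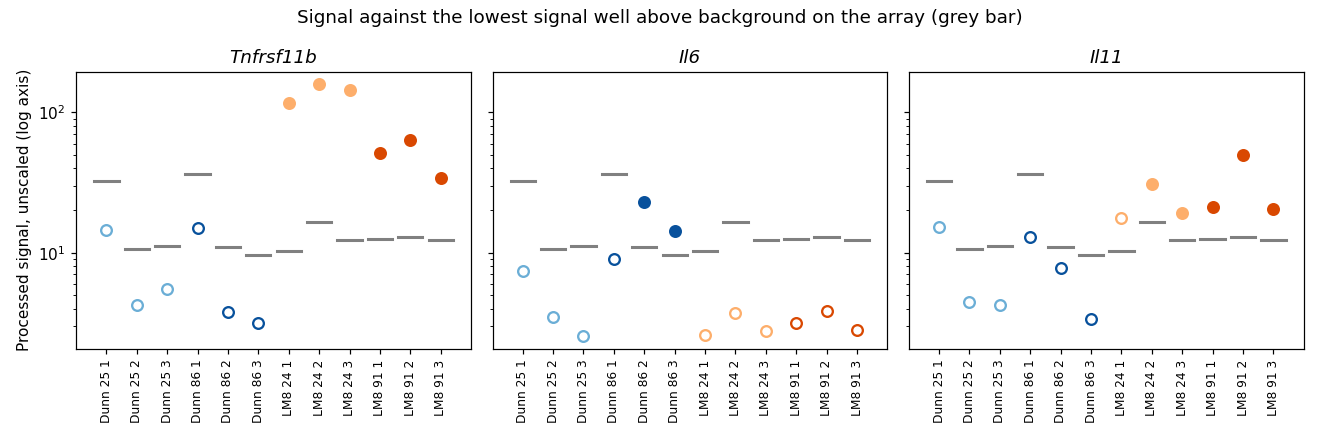
Unscaled processed signal (y axis, log scale) of Tnfrsf11b, Il6 and Il11 on each of the 12 arrays (x axis), filled where well above background, with a grey bar at the lowest signal well above background on that array. All LM8 points of Tnfrsf11b lie above their bars (33.8 to 158), 2 late Dunn points of Il6 do (23.1 and 14.2), and the bars of the 2 Dunn arrays of slide 1 stand at 32.3 and 36.4.

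RANKL itself could not be compared. The Tnfsf11 signal was 11.8, 3.38 and 3.16 in Dunn_25, 31.9, 4.67 and 2.79 in Dunn_86, 3.57, 4.66 and 3.28 in LM8_24 and 3.45, 3.53 and 3.28 in LM8_91. The highest values were those of slide 1 in the Dunn groups, where the limit was also highest, and none of the 12 was well above background. The ratio of RANKL to osteoprotegerin, by which this axis is usually described, is therefore not given.

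M-CSF had a strong signal in all groups, and its scaled level was somewhat lower in LM8. The scaled level of the brightest Csf1 probe was 4.84, 4.69 and 4.46 in Dunn_25 and 4.61, 4.62 and 4.52 in Dunn_86. It was 3.92, 3.87 and 3.82 in LM8_24 and 3.86, 4.06 and 4.30 in LM8_91. Every LM8 array was below every Dunn array, which was so for 3 of the 8 genes (Csf1, Il6 and Pth1r) and for 9.56% of all genes. The difference between early lines was -0.79 (SE 0.27, 95% interval -1.44 to -0.14, adjusted p 0.162) and that between late lines -0.51 (SE 0.23, 95% interval -1.08 to 0.06, adjusted p 0.331), and neither passed the test. Within slides the values were -0.92, -0.83 and -0.64 in early and -0.75, -0.56 and -0.22 in late cells.

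The other 2 Csf1 probes showed larger differences in the same direction. Probe A_55_P2169669 differed by -1.51 (SE 0.33, adjusted p 0.0843) between early and -1.50 (SE 0.42, adjusted p 0.169) between late lines, and probe A_55_P2017914 by -1.22 (SE 0.28, adjusted p 0.0904) and -0.96 (SE 0.35, adjusted p 0.257). All 3 probes were thus lower in LM8 without overlap within a passage and missed the threshold. Passage moved Csf1 little: the brightest probe differed by -0.08 (SE 0.28, 95% interval -0.78 to 0.62, adjusted p 1) in Dunn and by 0.21 (SE 0.20, 95% interval -0.26 to 0.68, adjusted p 0.561) in LM8 cells. The lines differed in this effect by 0.29 (SE 0.29, adjusted p 1).

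**Figure D4:**
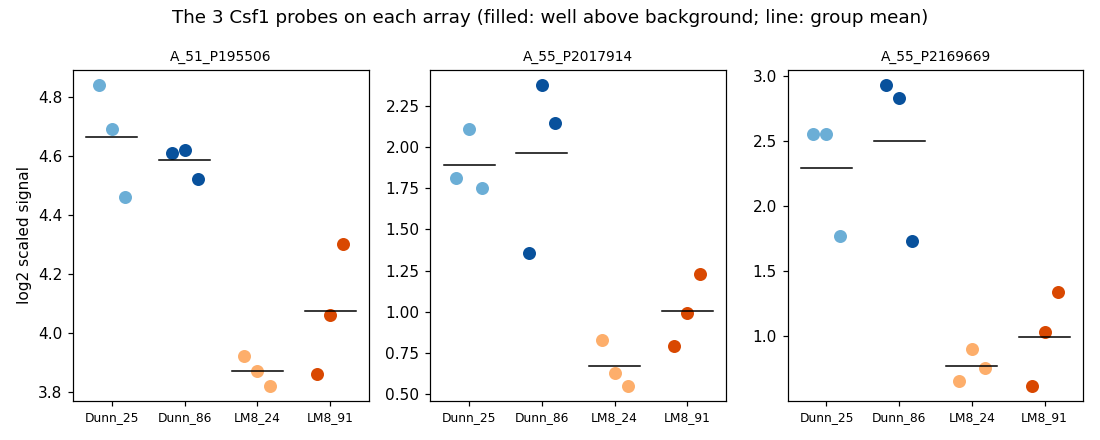
Scaled log2 signal (y axis, an own range in each panel) of the 3 Csf1 probes in the 4 groups (x axis), with 1 point for each of the 3 arrays and a line at the group mean. In each panel the LM8 points lie below the Dunn points of the same passage, with mean differences of -0.79 for probe A_51_P195506, -1.22 for A_55_P2017914 and -1.51 for A_55_P2169669 between early cells.

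Of the 3 cytokines that signal through gp130, Il6 was measured only in late Dunn cells and Il11 only in LM8 cells. The Il6 signal was 8.97, 23.1 and 14.2 in Dunn_86, the last 2 well above background. It was 7.45, 3.49 and 2.54 in Dunn_25, 2.58, 3.70 and 2.76 in LM8_24 and 3.14, 3.83 and 2.83 in LM8_91, none of them above background. The late Dunn arrays were thus higher than all LM8 arrays, and overlapped with early Dunn arrays on the scaled level.

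Between late lines Il6 was called. With its LM8 signal set at the limit of each array, it was 1.99-fold lower in LM8. This is not a strict bound, since the Dunn_86 signal of slide 1 (8.97) was itself not above background. The fitted difference was -2.95 (SE 0.33, adjusted p 0.0144 in limma). Within slides the difference was -2.13, -3.50 and -3.21. This call was not stable. With the slide as a block the adjusted p was 0.13, with dim signals set at the limit 0.156 (difference -1.67), and it was lost in 5 of the 6 fits that left out 1 array (adjusted p 0.0519 to 0.113), all but the one without replicate 1 of Dunn_86. Between Dunn passages the fitted difference was 1.02 (SE 0.60, adjusted p 0.952), negative on slide 1 (-0.65) and positive on the others (2.17 and 1.52).

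Il11, a cytokine that osteoblasts release in response to bone-resorbing agents, had signals of 17.7, 31.1 and 19.3 in LM8_24 and of 21.0, 49.9 and 20.4 in LM8_91, of which 2 and 3 were well above background. In Dunn cells the signals were 15.3, 4.43 and 4.23 at passage 25 and 13.0, 7.74 and 3.36 at passage 86, none above background. Passage did not move the LM8 level by a measurable amount (-0.02, SE 0.26, 95% interval -0.63 to 0.60, adjusted p 0.978). Late LM8 cells had at least 1.02-fold more signal than late Dunn cells (fitted 1.20, SE 0.54, adjusted p 0.335). Without replicate 1 of Dunn_86 the difference of 1.72 was called (adjusted p 0.0304), and on leaving out other arrays the adjusted p ran up to 0.578.

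Lif was close to the limit everywhere. Its signal was 12.7, 14.8 and 14.9 in Dunn_86, 2 of them above background, and 8.95, 30.4 and 13.5 in LM8_91, of which 1 was. Early cells gave 16.2, 4.55 and 5.34 (Dunn) and 11.8, 13.4 and 8.39 (LM8), none above background. Late lines differed by -0.67 (SE 0.34, adjusted p 0.342), with overlap of the groups.

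PTH1R, which marks cells of the osteoblast lineage, had a strong signal on every array, and its level relative to the array was lower in LM8 and in late cells, without passing the test. Its scaled level was 5.93, 5.63 and 6.14 in Dunn_25, 4.87, 5.09 and 5.28 in Dunn_86, 4.76, 4.65 and 4.82 in LM8_24 and 4.49, 4.14 and 4.27 in LM8_91. The groups followed each other in this order without overlap, and the neighbours that were compared, the passages of each line, did not differ past the threshold. The passage difference was -0.82 (SE 0.31, 95% interval -1.59 to -0.05, adjusted p 0.952) in Dunn and -0.44 (SE 0.19, 95% interval -0.90 to 0.02, adjusted p 0.329) in LM8 cells, negative on all 3 slides in both.

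The line difference of Pth1r was -1.15 (SE 0.28, 95% interval -1.84 to -0.47, adjusted p 0.109) between early and -0.78 (SE 0.24, 95% interval -1.38 to -0.18, adjusted p 0.198) between late cells, and it was negative on each slide. The early difference was called in 3 of the other analyses: -1.14 after quantile normalization (adjusted p 0.0361), -1.15 over the probes above background (adjusted p 0.0169) and -1.15 in 1 fit over the 12 arrays (adjusted p 0.0147). It was also called without replicate 2 of Dunn_25 (-1.29, adjusted p 0.0406), where 6445 of all genes were called. On leaving out other arrays the adjusted p of the early difference ran up to 0.348. The passage effect differed by 0.38 (SE 0.31, adjusted p 1) between the lines.

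The directions for Csf1 and Pth1r hold relative to the rest of the array. Without scaling, the line differences were 0.46 (early) and 0.29 (late) for Csf1 and 0.10 and 0.02 for Pth1r, all positive, as the median of the 8155 genes above background on all 12 arrays then stood at 0.98 and 0.59. With scaling, that median was -0.28 and -0.22. Relative to it, Pth1r differed by -0.87 (early) and -0.56 (late) and Csf1 by -0.51 and -0.29, each lower in LM8. Scaling shifts all genes of an array by the same amount, so that these relative values cannot differ between the scales. Between passages the unscaled Pth1r differences were -0.01 (Dunn) and -0.09 (LM8), where the median of these genes was 0.67 and 0.28, so that the unscaled Pth1r signal hardly differed between passages and the scaled decrease is one relative to the other genes (-0.68 and -0.37). After quantile normalization the 4 line values were -0.74, -0.67, -0.40 and -0.32.

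Pthlh, the ligand that tumours in bone are known to release, was not detectable. Its signal was 16.5, 3.80 and 4.20 in Dunn_25, 12.2, 3.52 and 3.27 in Dunn_86, 4.98 or less in LM8_24 and 3.61 or less in LM8_91. The differences fitted to it and to Tnfsf11 are differences of background, since both were above background on 0 of 12 arrays.

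Transcripts of some receptors of these signals were measured in the same cultures. Of the 8 receptor genes, 5 were well above background on all arrays: Csf1r (M-CSF receptor), Il6st (gp130), Il11ra1, Lifr and Osmr (oncostatin M receptor). None of the 8 was called in any of the 5 comparisons. Tnfrsf11a, which encodes RANK, was above background on all 6 LM8 arrays (signal 40.7 to 97.7) and on 1 of 3 arrays in each Dunn group, and Lgr4, a further receptor of RANKL, on 1 late Dunn and 2 late LM8 arrays. The scaled level of Csf1r was -2.85 ± 0.61, -2.81 ± 0.64, -2.53 ± 0.12 and -2.78 ± 0.56 (SD, n = 3) in Dunn_25, Dunn_86, LM8_24 and LM8_91, with an adjusted p of 0.557 or more in each comparison.

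Of the 5 receptor chains of the gp130 cytokines, Il6st, Osmr and Il6ra had lower values in LM8 in both passages, and none passed the test. The median of the 8 receptors was -0.39 between early and -0.55 between late lines, near that of all genes (-0.55 and -0.49). Il6st differed by -0.87 (SE 0.28, adjusted p 0.162) and -0.68 (SE 0.25, adjusted p 0.254) between early and late lines. Osmr differed by -0.94 (SE 0.31, adjusted p 0.162) and -0.99 (SE 0.23, adjusted p 0.116). Il6ra, the chain that binds interleukin 6, differed by -1.78 (SE 0.53, adjusted p 0.162) and -2.60 (SE 0.48, adjusted p 0.0665), and it was above background on 5 of 6 Dunn and 4 of 6 LM8 arrays. Il11ra1 differed by 0.29 (adjusted p 0.493) and 0.05 (adjusted p 0.886), with group means of 3.29 to 3.57 on the scaled level. Lifr was highest in early Dunn cells (4.01 ± 0.30) and 2.95 to 3.28 in the other group means, with line differences of -0.72 (early) and 0.27 (late), and its passage effect differed between the lines by 0.99 (SE 0.37, adjusted p 0.757).

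Downstream of gp130, 14 genes of the JAK and STAT pathway and its targets were examined. Of these, 12 were above background on every array with a value. In the comparison of late lines 1 was called higher and 1 lower in LM8, against 3.39% of all genes called, and 0 in each of the other 4. Socs3, the feedback inhibitor of gp130 signalling, was lower in late LM8 than late Dunn cells (difference -1.93, SE 0.26, adjusted p 0.0266), with scaled levels of 0.97 ± 0.13 and 2.90 ± 0.32 (SD, n = 3). Timp1, an inhibitor of matrix metalloproteinases, was higher by 2.52 (SE 0.32, adjusted p 0.0216), at 2.55 ± 0.25 against 0.03 ± 0.44.

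Of 28 genes of PTH1R and cAMP signalling, 22 were above background on every array with a value. In late versus early LM8 cells 1 was called higher and 1 lower, against 2.89% of all genes called. Nr4a2, a nuclear receptor gene that cAMP induces, fell by 1.30 (SE 0.18, adjusted p 0.0144), from 0.52 ± 0.07 to -0.78 ± 0.07. Rgs2, a regulator of G protein signalling, rose by 1.25 (SE 0.23, adjusted p 0.0482), from -2.01 ± 0.11 to -0.76 ± 0.33. In Dunn cells Rgs2 was above background on 3 of 3 early arrays (signal 178 to 475) and on 0 of 3 late arrays (3.67 to 39.1). None of these 28 was called between the lines.

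Of 11 transcription factors that act on Tnfsf11, such as Vdr, Runx2 and Stat3, all were above background on every array with a value, although RANKL was not. Nfkb1, a subunit of NF-kB, was the 1 gene of the 11 called, against 3.39% of all genes, and was lower in late LM8 than late Dunn cells (difference -2.00, SE 0.27, adjusted p 0.0248), at -1.53 ± 0.28 against 0.47 ± 0.22 (SD, n = 3).

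Of 23 other factors that promote osteoclasts, 6 were above background on all arrays with a value and 7 on none. The genes called were all lower: 2 in late versus early LM8 cells, 3 between early lines, 2 between late lines and 0 in Dunn passages, against 1.85%, 1.85%, 2.13% and 0.00497% of all genes called lower. They were Il34, Ccl2 and Mmp13. The median difference of the 23 was -0.57, -1.05 and -1.24 in LM8 passages, early lines and late lines, against -0.17, -0.55 and -0.49 for all genes. These medians include genes without a signal above background. Between early and late lines the median was also -1.48 and -1.32 for the factors that restrain osteoclasts, and -1.54 and -1.04 for the endothelial markers. Tnf, Il1b, Ptgs2 (cyclooxygenase 2) and Cxcl12 were above background on 1 array at most.

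Il34 encodes the other ligand of the M-CSF receptor. Its signal was 136 to 190 in Dunn_25, 185 to 336 in Dunn_86, 33.1 to 40.9 in LM8_24 and 16.8 to 23.0 in LM8_91, the last above background on 2 of 3 arrays. LM8 cells had less of it in early cells (difference -3.40, SE 0.33, adjusted p 0.00621) and in late cells (difference -4.44, SE 0.37, adjusted p 0.00599), and it fell with passage in LM8 (difference -1.34, SE 0.21, adjusted p 0.0248), a call that was lost in 11 of 17 other analyses (adjusted p up to 0.838). Between the lines Il34 thus passed the threshold, whereas Csf1 had a lower scaled level in LM8 that did not. The Csf1 differences of -0.79 (early) and -0.51 (late) stood against medians of -0.55 and -0.49 over all genes.

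Mmp13 encodes collagenase 3, which bone cells release in response to parathyroid hormone. Its signal was 392 to 984 in Dunn_25, 609 to 1015 in Dunn_86, 92.2 to 112 in LM8_24 and 10.3 to 22.6 in LM8_91, where 2 of 3 arrays were above background. It was lower in LM8, with differences of -3.70 (SE 0.29, adjusted p 0.00321) in early and -6.42 (SE 0.37, adjusted p 0.00219) in late cells. The passage difference was -3.10 (SE 0.21, adjusted p 0.000943) in LM8, against -0.38 (SE 0.42, adjusted p 0.952) in Dunn cells. Ccl2, a chemokine for osteoclast precursors, was above background in Dunn cells only (24.4 to 95.0 in early cells) and at least 9.39-fold lower in early LM8 cells (fitted -4.51, SE 0.49, adjusted p 0.0088).

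**Figure D5:**
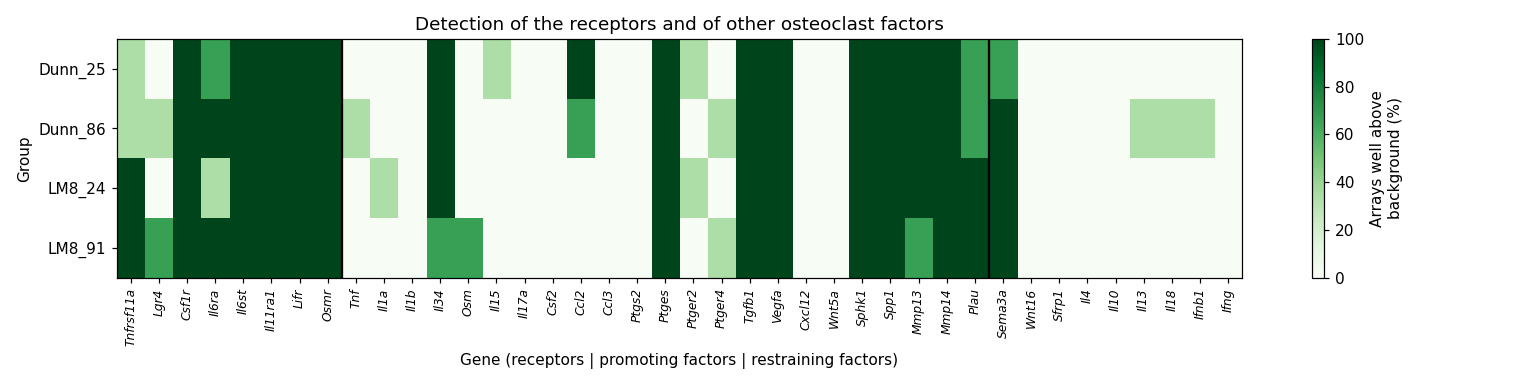
Share of the arrays with a value on which each gene was well above background (colour, in percent), for the 8 receptors, 23 promoting and 9 restraining factors (x axis) in the 4 groups (y axis). Ccl2 is coloured in the Dunn groups only, Tnfrsf11a is darkest in the LM8 groups, and most restraining factors are without colour.

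Of 9 factors that restrain osteoclasts besides osteoprotegerin, 0 were above background on all arrays, 5 on none, and 0 were called. Sema3a, a semaphorin that osteoblasts release, was the one measured in every group, on 2 of 3 arrays in Dunn_25 and on 3 of 3 in the others. Its scaled level was -4.30 ± 1.41, -2.47 ± 0.50, -2.12 ± 0.70 and -1.57 ± 0.34 (SD, n = 3) in Dunn_25, Dunn_86, LM8_24 and LM8_91.

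Markers of other cells were examined, as such cells could also give these signals. Among 11 osteoclast markers, Calcr, Dcstamp, Atp6v0d2 and Mmp9 were above background on 0 of 12 arrays, whereas Nfatc1 was on all of them (signal 620 to 1759). Oscar was above background on 1, 2, 3 and 3 of 3 arrays in Dunn_25, Dunn_86, LM8_24 and LM8_91. The summed signal of the 11 was 710 to 957, 1006 to 2223, 1330 to 2120 and 905 to 1477 in Dunn_25, Dunn_86, LM8_24 and LM8_91. This sum is unscaled, and the arrays differed in brightness. Ctsk (cathepsin K) was higher in LM8_24 than in Dunn_25 by 3.27 (SE 0.31, adjusted p 0.00545) and fell by 5.18 (SE 0.32, adjusted p 0.000672) to LM8_91, the same groups between which Tnfrsf11b was compared. It was above background on 3 of 3 arrays in LM8_24 (signal 437 to 676) but on 1 of 3 in Dunn_25 (13.6 to 39.1) and 2 of 3 in LM8_91 (9.85 to 25.9), so that the sizes rest in part on background signals. The early difference was 0.86 to 4.53 in the other analyses. Itgb3 was 6.08-fold lower in late LM8 than late Dunn cells with its LM8 signal set at the limit (fitted -4.61, SE 0.28, adjusted p 0.00231). This is not a strict bound, since Itgb3 was above background on 2 of 3 Dunn_86 arrays.

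Of 8 macrophage markers, 3 were above background on all arrays (Csf1r, Itgam and Fcer1g). The summed unscaled signals of the list were 11788 to 19114, 19461 to 22101, 13531 to 16991 and 11144 to 21114 in the same order. Cd14 was above background on 2 of 3 arrays in Dunn_25 and on 3 of 3 in the other groups. The pan-leukocyte gene Ptprc and the macrophage gene Adgre1 were above background on 2 of 12 arrays each. Fcer1g was lower in late LM8 than in late Dunn cells (difference -1.93, SE 0.23, adjusted p 0.0174). Of 5 endothelial markers, 1 was above background on all arrays and 2 on none, and 0 were called. Their summed unscaled signals were 437 to 684, 492 to 931, 695 to 939 and 811 to 1512. Of the osteoblast markers, Phex was higher in LM8 by 4.56 (SE 0.77, adjusted p 0.0405) in early and 3.19 (SE 0.41, adjusted p 0.0231) in late cells. It was above background on 1 of 3 Dunn_25 and 2 of 3 Dunn_86 arrays, so that these sizes rest in part on background signals too, and the early one was 1.19 to 5.81 in the other analyses. Phex was the 1 gene of the 11 in this list that was called between the lines. The median of the list was 0.02 between early and 0.53 between late lines. Its genes went both ways: by group mean, Bglap2, Ibsp and Spp1 were lower in LM8_24 than in Dunn_25, and Dlx5, Alpl and Col1a1 higher. The summed unscaled signal of the osteoblast list was 50958 to 115540, 142950 to 156890, 116470 to 279550 and 319630 to 463520. Spots without a value are left out of this sum. Col1a2, a bright gene of the list, had a value on 1, 2, 2 and 3 of 3 arrays in Dunn_25, Dunn_86, LM8_24 and LM8_91. Since the arrays also differed in brightness, the sums do not compare the groups. The part of these markers in the results on the 8 genes was not tested.

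For the 3 genes measured on at least 6 arrays, the genes with the most similar pattern over the 12 arrays were sought among 10888 genes. The levels of Mtcl1 (r = 0.990), Zfp296 (r = 0.975) and Gng4 (r = 0.973) followed those of Tnfrsf11b most closely. Those nearest to Csf1 were Scube2 (0.991), Lrrc51 (0.953) and Ehd3 (0.945), and those nearest to Pth1r were Usp46 (0.977), Wdr48 (0.974) and Selenot (0.974). These Pearson correlations are over 12 arrays of 4 groups, which share slide and brightness, and are given as a description. Those of Tnfrsf11b include the Dunn arrays, on which its values were not above background.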

How the data were processed

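RNA of early and late Dunn and LM8 cells was hybridized to Agilent mouse 4x44k v2 arrays in 1 colour, 3 arrays for each of 4 groups. The labels name RNeasy for the extraction and the study's methods TriReagent. For each array the authors deposited the scanner output of Feature Extraction (version 10.7.3), whose processed signal is an intensity after background subtraction, without scaling between arrays. They also deposited a table of all arrays, whose intensities equal the processed signal within 0.497%.

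Control spots and spots marked as outliers were left out and the rest averaged (43020 spots, 39429 probes). Log2 signals were set relative to the 75th percentile of all spots besides controls on each array. That percentile was not taken over unmarked spots alone, since up to 14.4% of the bright spots of an array (signal over 1000) were marked. Accessions matched 26581 probes (67.4%) to 20144 genes. A gene is given by its brightest probe. Groups were compared with limma 3.58.1 (R 4.3.3), 2 groups at a time and without a block, with Benjamini-Hochberg adjustment over probes; the difference between the lines in the passage effect was fitted over 12 arrays. A bound ("at least") is the mean of the brighter group against, on each array of the dimmer group, the higher of its own signal and the lowest signal well above background. It is not strict where an array of the brighter group was itself not above background, as for Il6 and Itgb3. The 8 genes, the lists and the rules were chosen with earlier results of these data known. Named besides the 8 are the genes of each list called in a comparison (at most 4 per list and comparison), the receptors, single list members for which detection or levels are given, and the 3 nearest patterns. Of the listed genes, 2 (Bglap and Cd68) had no probe.

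The steps were tested on simulated data. Replicate numbers mark slides. Deviations of same-numbered arrays from their group means correlated with r = -0.246 to 0.679, over 0.1 in 12 of 18 pairs, so that the slide was used as a block in an alternative only. Other alternatives were quantile normalization, normexp (offset 50, on the median signal), the deposited table, a filter on dim probes, 1 fit over 12 arrays, the methods' t-test, the mean of all probes and leaving out each array. Chosen after seeing the data were the percentile over unmarked spots, a floor on dim signals and leaving out slide 1. The number of arrays limits the precision. The R packages jsonlite 2.0.0 and data.table (version 1.17.8) handled the tables, and matplotlib 3.10.9 under Python 3.11.15 drew the figures.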

Additional observations from a re-analysis of the deposited data

Results flagged for a closer look

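The passage effect differed between the lines for 2 of the listed genes by the interaction of line and passage in limma over 12 arrays. For Mmp13 the difference was -2.72 (SE 0.44, adjusted p 0.0384), late cells being lower by more in LM8. For Rgs2 the fitted difference was 7.27 (SE 1.14, adjusted p 0.0307), which rests on background signals in late Dunn cells, where Rgs2 was not well above background on any array. In Dunn cells it was at least 36-fold lower at the late passage (fitted -6.02, SE 1.06, adjusted p 0.451). The call was lost in 14 of 21 other analyses for Mmp13 and in 11 of 21 for Rgs2, without a change of direction (-3.17 to -0.97 and 3.89 to 8.40).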

How the results depend on the processing

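In late versus early LM8 cells the count of called genes, 1 (Tnfrsf11b), was 0 with normexp, the deposited table, 1 fit over 12 arrays, the methods' t-test and without slide 1, and 0 to 1 on leaving out an array. Between early lines it was 0, and 2 with quantile normalization, the filter on dim probes and 1 fit over 12 arrays (Tnfrsf11b and Pth1r), and 1 with the deposited table and without slide 1 (Tnfrsf11b). On leaving out an array it was 0 to 5, with 1 without replicate 1 of Dunn_25 and 5 without its replicate 2 (Tnfsf11, Tnfrsf11b, Il6, Pthlh and Pth1r, of which 3 were not above background), a fit that called 6445 of all genes against 659 with all arrays. Between late lines it was 1 (Il6), and 0 with normexp, the deposited table, the filter (which leaves the Il6 probe out), the replicate block and the floor, and 2 without slide 1 (Tnfrsf11b and Il6). On leaving out an array it was 0 to 3, with 3 without replicate 1 of Dunn_86, a fit that called 1753 of all genes against 682 with all arrays. Quantile normalization gave 1, but Tnfrsf11b (2.72, adjusted p 0.0052) and not Il6 (-1.72, adjusted p 0.331). The replicate block changed no other call of the 8 genes. In Dunn passages and for the difference between the lines it stayed at 0.

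Of the values of the 8 genes, 32 changed sign, none of them called. With normexp these were, for Dunn passages, Csf1 0.14, Il6 -1.01 and Lif -1.20; for early lines, Tnfrsf11b -0.20 and Il11 -1.32; and for late lines, Tnfrsf11b -0.04 and Il11 -0.28. With the deposited table they were Csf1 0.73 (Dunn passages), Il11 0.34 (LM8 passages), Csf1 0.46 and Pth1r 0.10 (early lines), Csf1 0.29, Pth1r 0.02 and Lif 0.13 (late lines), and Csf1 -0.17 and Pth1r -0.08 (difference between the lines). With quantile normalization Lif was -0.13 (Dunn passages) and 0.08 (late lines), with the floor Il6 -0.26 and Lif -0.45 (Dunn passages) and Il11 -0.77 (early lines), with the mean of all probes Csf1 0.07 and with the percentile over unmarked spots Lif -0.02 (Dunn passages), and without slide 1 Il11 0.04 (LM8 passages). On leaving out an array, Csf1 ran from -0.18 to 0.01 and Lif from -0.51 to 0.84 in Dunn passages, and Il11 from -0.21 to 0.15 in LM8 passages and from -0.11 to 1.22 between early lines. The causes were not tested.

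Over all genes, the 1, 582, 659 and 682 called in Dunn passages, LM8 passages, early and late lines became 66, 563, 1787 and 1335 with quantile normalization, 0, 268, 116 and 615 with normexp, 1, 328, 2023 and 504 with the deposited table, and 0, 340, 74 and 36 with the replicate block. Higher in LM8 were 287 of 659 and 252 of 682 in the lines, and 1840 of 2023 and 319 of 504 with the deposited table. Its median over all genes was 0.63, 0.19, 0.71 and 0.32, against -0.18, -0.17, -0.55 and -0.49.

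Among the other genes named, the LM8 passage differences of Mmp13 and Ctsk stayed called in 17 of 17 other analyses, those of Mmp13 between lines in 16 of 17, those of Il34 between lines in 12 (early) and 13 (late), and that of Ctsk between early lines in 13. Calls of LM8 passages remained in 9 of 17 (Nr4a2), 6 (Il34) and 2 (Rgs2), those of early lines in 13 (Ccl2) and 8 (Phex), and those of late lines in 12 (Timp1), 11 (Socs3), 10 (Phex), 10 (Fcer1g) and 9 (Nfkb1), and for Itgb3 in 12 of 16. None of these differences changed direction. With 3 arrays a group and most of the 8 genes near or below the limit of detection, a missing call does not show that levels were alike.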
